A study of Mus musculus with 2 samples.

Results

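The miRNA genes that lie inside the mouse gene Sfmbt2 were described in adrenal glands of newborn mice. Members were all miRNA genes of the GENCODE M21 annotation (genome build mm10) on the plus strand of chromosome 2 that lie fully within the annotated body of Sfmbt2, from 10370510 to 10595253. This rule gave 119 of the 2202 miRNA genes in the deposited tables, and it used no measured value. Small RNA reads of under 30 nucleotides, made from total RNA, were counted in 1 group of 2 libraries. The animals were male B6CASTF1/J mice aged 4 days, first-generation offspring of a cross between C57BL/6J and CAST/EiJ. Replicate 1 was male 3 and replicate 2 was male 4, each with 1 technical replicate, and both entries carried 1 shared donor label. No second tissue, genotype, treatment or age was present, so levels are described and the only comparison is between the 2 libraries. The tissue was the whole gland, with cortex, medulla, vessels and blood mixed.

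Sfmbt2 encodes a Polycomb group protein, a member of a family that keeps genes silent through chromatin. In mice the gene is imprinted, with expression from the paternal copy in extraembryonic tissue, and one of its introns holds a large array of miRNA genes that arose in the rodent lineage. The array is best known from the placenta, whose development depends on it, and from embryonic stem cells. Its genes carry the names Mir297, Mir466, Mir467 and Mir669, and their mature forms are rich in alternating U and G or A and C. A miRNA binds target mRNAs mainly through its seed (bases 2 to 8), so a small sequence change in the seed alters which mRNAs can pair. The counts did not separate maternal from paternal alleles, and imprinting was not measured. Counts and precursor sequences both rest on mm10. Whether sequence differences of the CAST/EiJ copies changed the counts of single members was not tested.

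No mature sequence of a member was available here, so the families are illustrated by mature sequences of relatives that lie elsewhere in the genome. They are taken from RefSeq (GRCm38.p6), 5′ to 3′, with the seed in capitals. Of 10 miRNA genes named Mir297, Mir466, Mir467 or Mir669 outside Sfmbt2, 8 matched an entry with a mature sequence. The 5 shown have the longest exact runs of bases in common with a member precursor.
mmu-miR-466i-3p: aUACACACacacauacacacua
mmu-miR-466j: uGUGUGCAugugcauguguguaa
mmu-miR-466k: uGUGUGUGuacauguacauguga
mmu-miR-467h: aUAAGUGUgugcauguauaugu
mmu-miR-669n: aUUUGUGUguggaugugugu
The 8 sequences had 8 different seeds. Of the 22 bases of mmu-miR-466i-3p, made from Mir466i on chromosome 13, a run of 21 occurred in the Mir466f-2 precursor of the cluster. Of the 23 bases of mmu-miR-466j (chromosome 10), 22 in a row occurred in 10 members, among them Mir466m. For mmu-miR-466k (chromosome 3) 22 of 23 bases in a row occurred in 9 members, among them Mir466o. The runs were shorter for mmu-miR-467h, with 18 of 22 bases in 3 members including Mir669d, and for mmu-miR-669n, with 18 of 20 bases in Mir669c. None of the 10 relatives outside Sfmbt2 had a count in either library. For reads that fit 1 place only, a count of 0 sets an upper limit of 3 counts, or a CPM of 0.757 in replicate 1 and 1.78 in replicate 2. None of the 5 sequences shown lay whole in a member. Whether reads of these relatives also fit a member was not tested, since the alignment settings are not given. Reads fitting several places were not given to a gene, so for these relatives a count of 0 sets no sure limit. CPM is the count scaled to 1000000 sense-strand miRNA counts of a library, and such limits and all intervals below cover counting error only.

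All 119 members lay in 1 intron. It spans chromosome 2, 10461473 to 10523944 (62472 bases), and is intron 10 of transcript Sfmbt2-201 and intron 11 of Sfmbt2-205, the annotated transcripts that reach across it. No member overlapped an exon of Sfmbt2. From the first member, Gm22072 at 10465287, to the end of the last, Mir669h at 10518279, the genes covered 52993 bases, 23.6% of the length of Sfmbt2. Neighbouring precursors were separated by a median of 206 bases (range 70 to 2575). Precursor lengths ran from 73 to 127 bases with a median of 98. By name the cluster held 14 Mir467 genes, 29 Mir669 genes, 23 Mir466 genes, 5 Mir297 genes and 48 predicted loci with Gm names. RefSeq listed 72 of the 119, each at the same coordinates.

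The cluster was built of repeated units. Mir467 genes returned at a nearly constant step along the intron: with Gm25022, whose precursor is identical to that of Mir467a-2, 15 genes stood in line, and 13 of 14 steps from one start to the next were between 2400 and 2500 bases (median 2449.5). The remaining step, from Mir467e to Mir467d, was 1909 bases. The 119 precursors had only 88 distinct sequences. In 16 groups of identical precursors there were 47 members, the largest being 9 copies of Mir669a (Mir669a-4 to Mir669a-12) and 7 copies of the Mir467a type. Reads that align to several places were not given to any gene in the deposited tables, so a counted read had to fit 1 place.

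To measure this, each precursor was divided into overlapping windows of 22 bases, about the length of a mature miRNA, and a window was called its own if no other annotated miRNA precursor held it on either strand. The 10 relatives outside Sfmbt2, all without counts, had own windows of 40.0% (Mir467h and Mir297-1) to 100% (Mir669n). At least 1 own window was found in 65 members, or 54.6%, against 86.6% of the 2083 other miRNA genes. All windows were own in 2 members and in 53.7% of the other genes. Members made up 54 of the 334 miRNA genes with no own window at all. Matches in the rest of the genome were not searched, so a window called own may still occur elsewhere, for example in repeats of UG and CA. Windows covered the whole precursor, and no mature sequence of a member was available. An own window may thus lie outside the mature form, and own sequence without a count does not show that a gene was not expressed.

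Counts from the cluster were few and came from a handful of genes. The summed level was 1831 CPM in replicate 1 (7255 counts, 0.183% of miRNA counts, 95% exact Clopper-Pearson interval 0.179 to 0.187%) and 1506 CPM in replicate 2 (2540 counts, 0.151%, 0.145 to 0.157%). The mean was 1669 ± 230 CPM (SD, n = 2). Reads fitting several places are not in these sums, and 54 members had no own window. The level of the cluster may therefore be higher than counted, by an amount that was not tested. In this bulk tissue, fewer cells that express the cluster, less RNA per cell and reads set aside cannot be told apart. Members with at least 10 counts in both libraries, called detected, numbered 7 of 119, or 5.88%, against 15.4% of all 2202 miRNA genes. No count in either library was seen for 100 members, or 84.0%, against 65.6% of all miRNA genes. The 5 members of highest mean level (Mir467d, Mir467e, Mir669o, Mir669c and Mir467c) held 97.0% of cluster counts in replicate 1 and 92.6% in replicate 2, a mean of 94.8% ± 3.16 (SD, n = 2). The other 112 members, below detection, held 39 counts in replicate 1 and 16 in replicate 2.

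**Figure D1:**
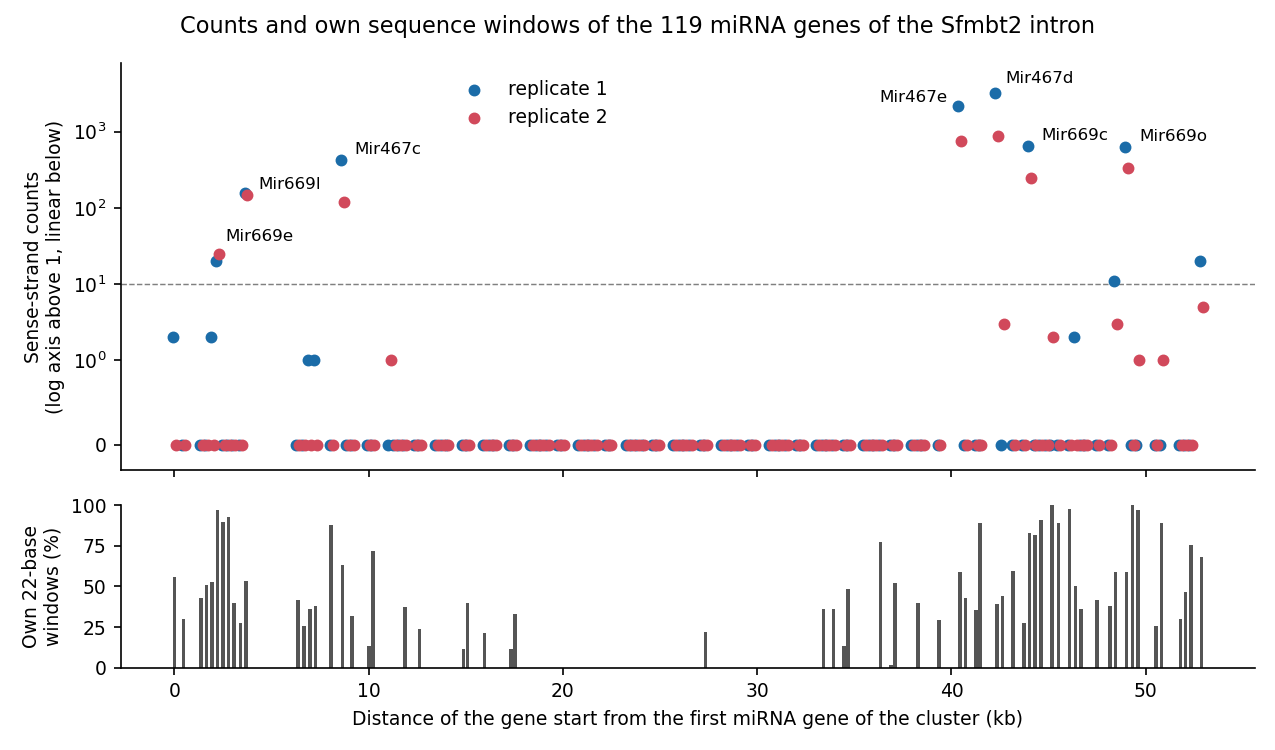
Sense-strand counts of the 119 members in both libraries (upper panel, one point per gene and library, the dashed line marks 10 counts) and the percent of 22-base windows found in no other annotated miRNA precursor (lower panel), against distance from the first member in kilobases. The 7 labelled genes lie at or outside the bounds of the stretch between Mir467c and Mir467e, whose 72 genes have 1 count in all.

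Counts and own sequence were both low in a middle stretch of the array. Its bounds, Mir467c and Mir467e, are themselves detected genes, so the choice of bounds keeps their counts out of it. Mir467c, with 419 and 121 counts, is in none of the stretches below. The 16 members before Mir467c had 183 and 173 counts in replicates 1 and 2, and all of them had an own window. The 72 members between Mir467c and Mir467e had 0 and 1 counts, and 52 of them had no own window. The 30 members from Mir467e to the end had 6653 and 2245 counts, and 28 of them had an own window. Own windows made up 55.7%, 10.3% and 58.9% of all windows in these stretches, in the same order. How far the low counts of the middle stretch come from reads set aside as matching several places was not tested.

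The Mir467 genes gave most of the counts. Together they held 5770 counts, or 79.5% of the cluster, in replicate 1, and 1769 counts, or 69.6%, in replicate 2. Mir467d (ENSMUSG00000077021.2, chromosome 2, 10507630 to 10507714) was the highest member, with 3183 counts in replicate 1 and 891 in replicate 2. Its level was 666 ± 195 CPM (SD, n = 2), rank 111 of all 2202 miRNA genes. Its direct neighbours had next to no counts: the predicted locus Gm22678 on its left had no count, and Mir466 on its right had 0 and 3 counts.

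Mir467e, at 10505721 to 10505807, followed with 2168 and 756 counts and a level of 498 ± 70.1 CPM (SD, n = 2). Mir467c, the first Mir467 gene of the array at 10473931 to 10474027, had 419 and 121 counts, or 88.8 ± 24.1 CPM. These 3 genes stand at the outer ends of the Mir467 line and were the ones with most own sequence: 39.1% of windows in Mir467d, 59.1% in Mir467e and 63.2% in Mir467c. Mir467d and Mir467e resembled each other most, with 92.0% identical positions in a global alignment (80 of 87).

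The inner Mir467 genes were almost without counts. The 10 Mir467a loci had no own window and 1 count in all, at Mir467a-1 in replicate 2. Mir467b, which differs from Mir467a-1 in few positions (97.3% identity), had own sequence in 21.2% of its windows and no count in either library. Mir467c, Mir467e and Mir467d had 70.1%, 78.2% and 82.4% identity to Mir467a-1. For the Mir467a loci a count of 0 sets no limit on the level, since their reads would fit several copies.

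The Mir669 genes held 1468 counts (20.2% of the cluster) in replicate 1 and 761 counts (30.0%) in replicate 2. Mir669o (ENSMUSG00000077086.1, 10514300 to 10514395) had 624 and 334 counts, or 178 ± 28.6 CPM (SD, n = 2). Mir669c (ENSMUSG00000076118.1, 10509296 to 10509404) had 645 and 249 counts, or 155 ± 10.8 CPM. The levels of these 2 genes did not differ beyond their spread, and both ranked below Mir467e in either library.

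Near the start of the array, Mir669l (ENSMUSG00000076959.1, 10468971 to 10469068) had 157 and 148 counts, or 39.6 and 87.7 CPM in replicates 1 and 2. Mir669e (ENSMUSG00000080653.1, 10467495 to 10467613) had 20 and 25 counts, or 5.05 and 14.8 CPM. Mir669h at the far end had 20 and 5 counts. Mir669f had 2 and 0 counts, and the remaining 23 Mir669 genes had none.

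Loci present in several copies had no counts in this family either. The 12 Mir669a loci had no count, and 11 of them had no own window. The 5 Mir669 genes with at least 10 counts in a library had own windows of 53.2% (Mir669l), 58.7% (Mir669o), 68.3% (Mir669h), 83.0% (Mir669c) and 96.9% (Mir669e). Mir669b with 89.5% own windows and Mir669i with 75.5% had no count. Mir669o was 92.8% identical to Mir669a-1, the closest match of any kind among the 9 members with at least 10 counts in a library. The next closest were Mir467d and Mir467e.

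The 23 Mir466 genes were close to absent from the counts, with 12 in replicate 1 and 8 in replicate 2. Mir466n at 10513741 to 10513834 gave 11 and 3 of these. Mir466 had 0 and 3 counts, Mir466o 1 and 0, and Mir466h and Mir466l 0 and 1 each. Mir466g had 100% own windows and no count. A limit of 0.757 CPM in replicate 1 and 1.78 CPM in replicate 2 would hold for it only if its reads fit 1 place. The genome was not searched for this. The 8 Mir466b loci had no count, and 6 of them had no own window. The 5 Mir297 genes had 3 counts in replicate 1, of which 2 were at Mir297b and 1 at Mir297a-2, and none in replicate 2.

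The 48 predicted loci with Gm names held 2 counts in each library. Those in replicate 1 were at Gm22072, the first gene of the array, and those in replicate 2 at Gm22239, all of whose windows were own. Among these loci 26 had an own window, and 46 had no count. Members with own sequence and no count numbered 47 in all, and the first of them along the intron were Gm22677, Mir466m, Mir466f-1, Mir669b and Gm23578, with own windows of 29.9%, 42.9%, 50.7%, 89.5% and 92.8%.

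**Figure D2:**
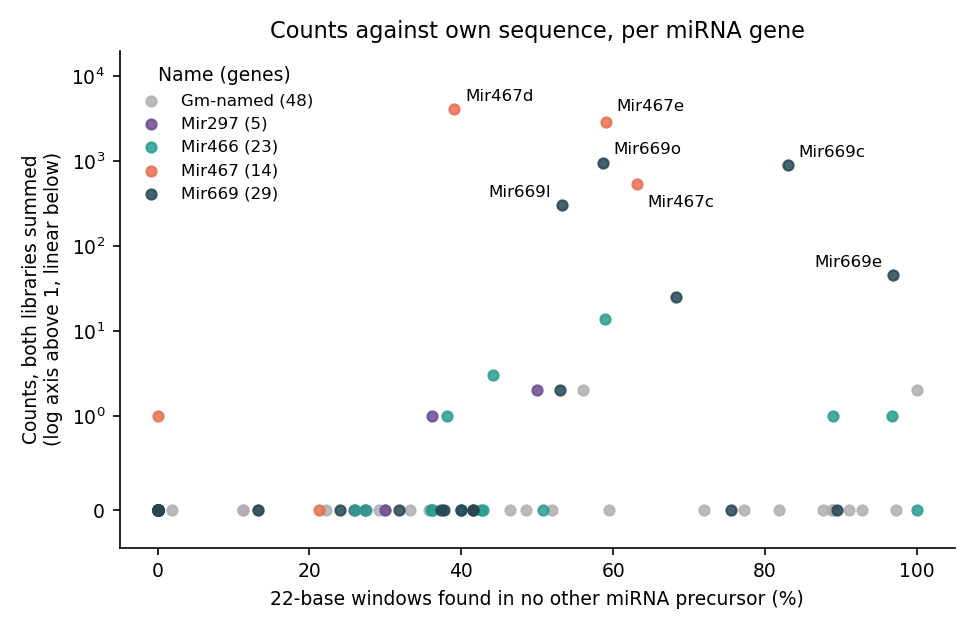
Counts of each member summed over both libraries against the percent of its 22-base windows found in no other annotated miRNA precursor, coloured by name. The 54 genes without own windows share the point group at 0% and hold 1 count, and genes with many own windows are found both with counts and at 0.

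Of the 65 members with an own window, 18 had a count and 7 were detected, while of the 54 without one, 1 had a count and none was detected. Among the 29 members with at least 50% own windows 14 had a count, against 5 of the other 90. The 7 detected members had own windows of 39.1 to 96.9% (median 59.1%), and the 47 with own sequence and no count had 1.89 to 100% (median 40.0%). Within the detected members the order of own sequence was not the order of counts: Mir467d had the lowest share and the highest level, and Mir669e the highest share and the lowest level. GC content was low throughout, at 29.0 to 43.4% (median 37.3%), and the detected members lay within this range at 34.7 to 42.9%. The predicted folding energy per base was -0.387 kcal/mol at the median of the detected members and -0.379 at that of the 100 members without counts.

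The 2 libraries were compared gene by gene with a two-sided exact binomial test of counts against the ratio of library totals, with Benjamini-Hochberg adjustment over all 404 miRNA genes that had at least 10 counts in either library. A gene was called different at an adjusted p under 0.05 and a log2 ratio (replicate 2 over replicate 1, on CPM + 0.5) above 1 or below -1. The test compares 2 libraries and not conditions. It covers counting error only, so it says nothing on how animals vary. Of the 404 genes, 74 were called (18.3%), with replicate 2 higher at 39 (9.65%) and lower at 35 (8.66%).

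Among the 9 members tested, 2 were called, both higher in replicate 2 and none lower, a share near the background. Mir669l was 2.21-fold higher there (95% exact interval 1.76 to 2.79), a log2 ratio of 1.14 (adjusted p = 3.22e-11, exact binomial test). Mir669e was 2.94-fold higher (1.57 to 5.57), a log2 ratio of 1.47 (adjusted p = 0.000897, exact binomial test). Differences at least as large as that of Mir669l were seen in 20.0% of the 404 tested genes, and as large as that of Mir669e in 11.1%. With CPM + 5 in place of CPM + 0.5, Mir669e had a log2 ratio of 0.98 and was no longer called, while 14.1% of all tested genes were. The 2 genes lie close together at the start of the array.

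**Figure D3:**
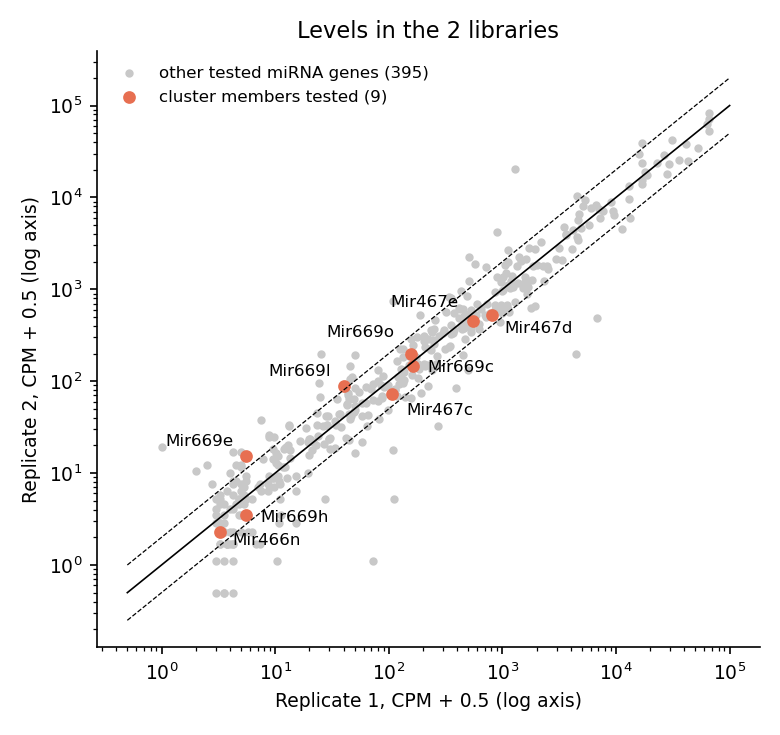
CPM + 0.5 in replicate 1 against replicate 2 on log axes for the 404 tested miRNA genes, with the 9 tested members in colour, the line of equal level and dashed lines at a 2-fold difference. Mir669l and Mir669e lie above the upper dashed line, and the other 7 members between the dashed lines.

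The Mir467 genes had lower values in replicate 2, by less than the threshold on the ratio. Mir467d was 1.52-fold lower in replicate 2 (exact interval 1.41 to 1.64), Mir467c 1.47-fold lower (1.20 to 1.82) and Mir467e 1.22-fold lower (1.12 to 1.33). Mir669o was 1.26-fold higher (1.10 to 1.44). For Mir669c the ratio was 0.907 (0.780 to 1.05), and the intervals of Mir466n and Mir669h were wide, from 0.115 to 2.42 and from 0.172 to 1.61. At a threshold of 0.58 on the log2 ratio Mir467d was called as well, which gave 3 members against 32.7% of all tested genes. Without any threshold of size 6 members were called, 3 higher and 3 lower, against 62.1% of all tested genes.

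**Figure D4:**
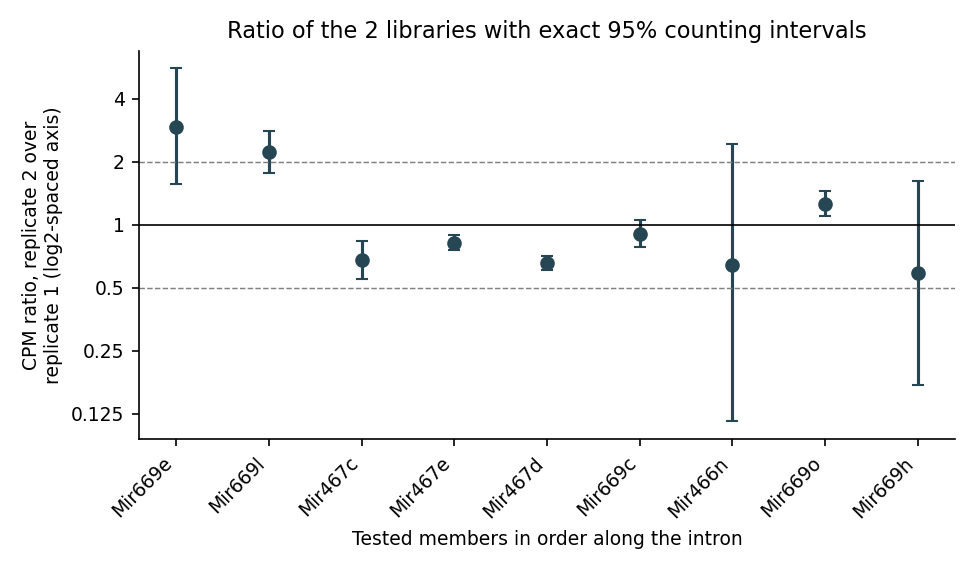
CPM ratio of replicate 2 over replicate 1 for the 9 tested members in their order along the intron, with exact 95% counting intervals on a log2-spaced axis and dashed lines at 0.5 and 2. Mir669e and Mir669l lie above 2, and the 3 Mir467 genes lie below 1 with intervals that stay below 1.

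The mix within the cluster differed between the 2 libraries. Mir467d held 43.9% of cluster counts in replicate 1 and 35.1% in replicate 2, while Mir467e held 29.9% and 29.8%. Mir669l held 2.16% and 5.83%, and Mir669o 8.60% and 13.1%. As a family, Mir467 had a CPM ratio of 0.720 (exact interval 0.682 to 0.760) and Mir669 one of 1.22 (1.11 to 1.33). The median log2 ratio over the 9 tested members was -0.29, beside -0.05 over all 404 tested genes. Regardless of sign, the median log2 ratio was 0.56 for the members and 0.50 for all tested genes.

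Other imprinted miRNA loci were read in the same libraries. Reads fitting several places were left out, and an own window was found in 54.6% of members against 86.6% of the other miRNA genes. The levels below are therefore compared as counted, and do not rank the loci by expression. The maternally expressed cluster from Mir379 to Mir410 on chromosome 12 is also a long array, but in a noncoding host. It had 33 of 38 genes detected and a summed level of 84746 ± 1442 CPM (SD, n = 2). Of its 34 tested genes, 1 was called higher and 3 lower in replicate 2. Of 5 miRNA genes at other imprinted loci, Mir335 in Mest was at 25930 ± 4383 CPM, above the summed level of the Sfmbt2 cluster. Mir298 had a mean of 2566 CPM, but its place differed between the libraries. It was below the cluster in replicate 1 (895 against 1831 CPM) and above it in replicate 2 (4238 against 1506 CPM). Mir296 with a mean of 858 CPM, Mir483 with 580 CPM and Mir675 with 7.67 CPM were below the cluster. Of the 5 genes, 2 were called higher and 2 lower in replicate 2.

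Markers of the sampled tissue and of other cells were read in the same counts. The neuroendocrine miRNAs Mir375, Mir7-1 and Mir7b of the labelled tissue were all detected, with a summed level of 36161 and 46603 CPM in replicates 1 and 2. Most of this was Mir375 with 31129 and 42377 CPM. Mir7b had 4570 and 3754 CPM and Mir7-1 had 462 and 472 CPM, and none of these genes was called. Mir7-2, not on the list and looked up after the data were seen, had 545 and 113 counts and was called lower in replicate 2. Mir7-1 and Mir7-2 are numbered copies, so reads fitting both would not be counted. Several other marker lists differed between the libraries. Mir122 of liver was at 1299 and 20602 CPM. The 3 red blood cell miRNAs, all detected, summed to 7248 and 595 CPM. Most of this was Mir451a with 6842 and 491 CPM. Mir144 had 393 and 84.8 CPM, whereas Mir486 had 12.4 and 19.6 CPM and was not called. Of 5 striated muscle miRNAs Mir206 was detected (1130 and 2646 CPM), Mir133a-2 had no count, and the other 3 had at most 2 counts in a library. The Mir1a and Mir133a genes are numbered copies, and reads fitting several places were not given to a gene. Their low counts therefore set no limit on the level. Of the listed markers of pluripotent and trophoblast stem cells (Mir290a to Mir295), 3 of 6 that matched a gene were detected, with 338 and 241 CPM in sum and none called, led by Mir293 with 708 and 183 counts. The listed symbol Mir292a matched no gene. Mir292 of the same cluster, looked up after the data were seen, is not in this sum and had 420 and 125 counts (106 and 74.1 CPM). The part of these cell types in the differences at Mir669l and Mir669e was not tested.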

How the data were processed

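Small RNA libraries from adrenal glands of 2 male mice were used. The authors deposited whole-number read counts per miRNA gene, made on mm10 with annotation M21 per the file lists beside the tables. The aligner, the trimming and the filters are not given in the sources used here. The third column (sense strand) was used. Replicate 1 had 11770895 reads and 3961630 sense-strand miRNA counts, and replicate 2 had 6557080 and 1686822. Rows naming no gene were left out and held 66.3% and 74.3% of reads, including 27.0% and 25.7% set aside as matching several places.

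Levels are CPM. The exact test is described with its result. Scaling by edgeR 4.0.16 (TMM) and DESeq2 1.42.0 size factors, other strand columns, count minimums, thresholds and added CPM were tried, as was leaving out a library. Precursors came from the GENCODE M21 transcript sequences. Identity was computed with Biopython 1.88 and folding with ViennaRNA 2.7.2. The test was checked on simulated counts with counting error only and with changes larger than those of Mir669l and Mir669e. The check thus does not cover variation between libraries or changes of their size. Own windows of 22 bases replaced a planned count of genome matches per mature sequence. No genome sequence was used here, and no mature sequence of a member was available. Members, lists and tests were chosen with earlier results of these data known. Named genes were the detected and called members, the outermost genes, the neighbours of Mir467d and the first 5 genes with own windows but no count. Others, such as Mir466g, Mir669b and Mir669i, were named after their values were seen. Analyses ran in R 4.3.3 and Python 3.11.15 with scipy 1.17.1.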

Additional observations from a re-analysis of the deposited data

How the results depend on the processing

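With 2 libraries and 1 group, a difference between conditions cannot be estimated, and variation between animals only poorly. Over the 340 miRNA genes detected in both libraries the common edgeR dispersion was 0.155, a coefficient of variation of 0.394 beyond counting error. With 1 library per animal, this value cannot separate animals from libraries. The summed level was 1905 CPM with the either-strand column, whose library totals are smaller although the members' own counts were equal in both columns, and 1003 CPM without Mir467d. With either library left out it was 1506 to 1831 CPM, which cannot exceed the spread, and the share of the 5 highest members was 93.6 to 97.0%, since Mir669l then replaces Mir467c among the 5 highest of replicate 2. Members called numbered 6 with no threshold on the ratio and 1 with CPM + 5, an alternative chosen after seeing the data. The cause of the loss of Mir669e there is its low CPM against the added 5. The measure of own windows was also chosen after seeing the data: it held for 65 members with windows of 18, 20 or 22 bases and against all annotated transcripts, and for 18 when only members with a count were taken. TMM and DESeq2 scaling gave 1667 and 1668 CPM, and 2 called members each. The other alternatives kept the detected members at 7 to 9 and the median log2 ratio of tested members at -0.29 to -0.14. The planned level of members with a mature sequence of 1 genome match was not run. Replicate 2 had fewer counts, so 3 counts are 1.78 CPM there and genes of a few counts cannot be compared. No paired analysis was possible because the series has 1 group.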

Other observations

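The strand opposite to the 119 members had 0 counts in replicate 1 and 0 in replicate 2. Over all miRNA genes that column held 478045 and 216038 counts. Whether these come from miRNA genes that overlap on opposite strands was not tested, so the 0 is not read as a trait of the cluster. Precursors of the 5 name groups differed in predicted folding energy per base, as computed by RNAfold from the reference sequence. The median was -0.445 kcal/mol for Mir467, -0.415 for Mir466, -0.406 for Mir669, -0.374 for Mir297 and -0.293 for the Gm-named loci. Counts in replicates 1 and 2 were 5770 and 1769 for Mir467, 12 and 8 for Mir466, 1468 and 761 for Mir669, 3 and 0 for Mir297 and 2 and 2 for the Gm-named loci, which is not the order of the energies. The Mir467 genes that held the counts had weaker predicted folds than the median of their group, with -0.298 kcal/mol per base for Mir467c, -0.378 for Mir467e and -0.387 for Mir467d.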
